A study of Rattus norvegicus with 22 samples.

Results

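The genes described here are 10 rat genes of extracellular purine signaling: the ATP-gated channels P2rx4 and P2rx7, the nucleotide receptors P2ry1 and P2ry6, the adenosine receptors Adora1, Adora2a and Adora3, the ecto-enzymes Entpd1 and Nt5e that make adenosine from ATP, and the ATP-release channel Panx1. They were chosen by name, from the pathway, and all 10 are among the 17172 genes of the count table. Of these, 9 had enough reads to be tested, as 9 of 12875 tested genes; Adora3 had 0 counts in all 14 libraries. RNA-seq was done on polyadenylated RNA from the whole hippocampus of the injured side, 1 library per rat. All rats were adult male Sprague-Dawley animals, a wild-type outbred stock, and all had anesthesia and a craniectomy over the right hemisphere. TBI rats (traumatic brain injury) then received a moderate lateral fluid percussion injury, a brief pressure pulse onto the dura, and sham rats did not. Tissue was taken 1 day or 14 days after the procedure, which gives 2 sham rats and 4 TBI rats at day 1, and 4 sham rats and 4 TBI rats at day 14.

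Injured and active cells release ATP, in part through pannexin channels, and extracellular ATP and other nucleotides act on P2X ion channels and P2Y G-protein-coupled receptors. Ectonucleotidases on the cell surface then remove phosphates in turn: CD39 (Entpd1) takes ATP and ADP to AMP, and CD73 (Nt5e) takes AMP to adenosine, which acts on its own receptors. In brain, microglia carry several of these receptors: P2RY12 senses ADP and directs their processes, P2RY6 senses UDP and is linked to phagocytosis, and P2RX4 and P2RX7 are ATP-gated channels known from microglial activation and inflammasome signaling.

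Library totals lay between 15065540 counts, in a TBI rat of day 14, and 23743703 counts, in a sham rat of day 1. Levels are given as CPM, counts scaled to a common library size with edgeR's TMM factors; they compare samples for 1 gene, not genes with each other, since gene lengths were not used. Changes are log2 fold changes from edgeR's quasi-likelihood test. Their standard errors (SE) and intervals were derived from the F statistic of that test. A gene is called changed when its Benjamini-Hochberg adjusted p over all 12875 tested genes is under 0.05. In 3 libraries (sham day 1 replicate 1 and TBI day 14 replicates 2 and 3) the summed CPM of choroid plexus markers was 8694, 1547 and 7641, with the thyroxine carrier Ttr at the top of the list, against 8.25 to 25.7 in the other 11. Otx2, a defining choroid plexus factor, was at 0 counts in all 14, as were 2170 of the 17172 genes of the table. That row says that no read was assigned to the gene model and not that the gene was silent. Neuron markers were high in every library, at 3772 to 11668 summed CPM over 10 genes. In whole tissue, more or fewer cells of a type and more or less RNA per cell cannot be told apart.

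Of the 9 tested genes, 2 rose at day 1 (P2ry6 and P2rx4) and 0 fell, while after TBI 11.2% of all tested genes were higher and 7.93% lower at that day. At day 14, 1 rose (P2ry6) and 0 fell, beside 4.07% of all genes higher and 0.365% lower. Counts this small were read gene by gene and not as a property of the group. The median log2 fold change of the 9 genes was 0.23 at day 1 and 0.22 at day 14, compared with -0.02 and -0.03 over all tested genes. Unadjusted edgeR p-values were under 0.05 for 2 of the 9 at each day, the day 14 pair being P2ry6 and Nt5e. The share of all tested genes under that limit was not counted. It is at least the share called after adjustment in either direction, 19.1% at day 1 and 4.43% at day 14. These nominal counts were therefore not read as a result.

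**Figure D1:**
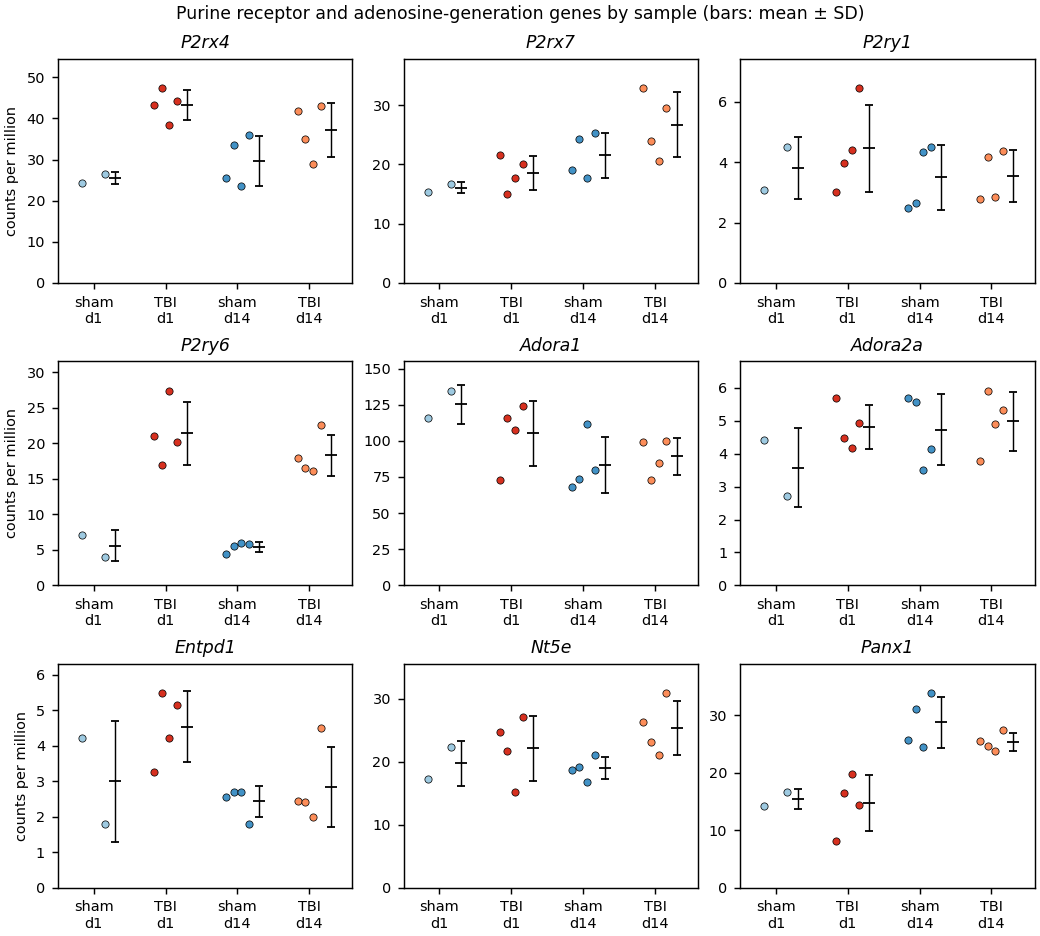
CPM (linear axis, starting at 0) of the 9 tested genes in each of the 14 rats, by group; points are rats and bars are mean ± SD. P2ry6 is at 16.1 to 27.4 CPM in the 8 TBI rats and at 4.01 to 7.11 in the 6 sham rats, and Panx1 is lower in both day 1 groups than in both day 14 groups.

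P2ry6, the UDP receptor, had the largest log2 change of the 9 genes at both days. It was at 7.11 and 4.01 CPM in the sham rats of day 1 and at 21.1, 16.9, 27.4 and 20.2 CPM in the TBI rats of that day. At day 14, the sham rats had 4.46, 5.53, 6.00 and 5.82 CPM and the TBI rats had 17.9, 16.6, 16.1 and 22.5 CPM. Every TBI rat lay above every sham rat of either day, and the lowest TBI value was more than double the highest sham value. The rise was 3.85-fold at day 1 (log2 1.95, SE 0.27, edgeR adjusted p = 0.000194) and 3.35-fold at day 14 (log2 1.74, SE 0.21, edgeR adjusted p = 0.000104).

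Set in order, P2ry6 averaged 21.4 ± 4.40 CPM (SD, n = 4) in the TBI rats of day 1 and 18.3 ± 2.93 CPM (SD, n = 4) in those of day 14. The sham rats followed, with 5.56 ± 2.19 CPM (SD, n = 2) at day 1 and 5.45 ± 0.69 CPM (SD, n = 4) at day 14. Neither the pair of TBI groups (log2 -0.22 for day 14 against day 1, 95% interval -0.64 to 0.19, edgeR adjusted p = 0.382) nor the pair of sham groups (log2 0.02, interval -0.52 to 0.56, edgeR adjusted p = 0.965) differed beyond its spread. The TBI effect at day 1 was 0.20 log2 units above that at day 14, with an interval of -0.48 to 0.88 (edgeR adjusted p = 0.759). The call at each day was kept in all 22 alternative fits, with log2 changes of 1.59 to 2.41 at day 1 and 1.63 to 1.91 at day 14.

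P2rx4, an ATP-gated cation channel, rose at day 1. The sham rats of day 1 had 24.4 and 26.5 CPM, and the TBI rats 43.2, 47.3, 38.3 and 44.2 CPM, with no overlap. The rise was 1.70-fold (log2 0.76, SE 0.20, edgeR adjusted p = 0.0157). At day 14 the values were 25.5, 33.5, 23.6 and 35.9 CPM in sham rats and 41.7, 35.0, 28.8 and 43.0 CPM in TBI rats. These groups overlapped, and the difference of log2 0.32 (interval -0.01 to 0.66) did not pass the test (edgeR adjusted p = 0.408). The day 1 and day 14 effects differed by 0.44 log2 units, interval -0.09 to 0.98 (edgeR adjusted p = 0.359), so the effect was not shown to differ between days. The day 1 call rests on the pair of sham rats: it was lost without either of them (log2 0.70, adjusted p = 0.0687 without replicate 1, and log2 0.83, adjusted p = 0.0837 without replicate 2, by edgeR) and without the 3 libraries high in choroid plexus markers (log2 0.69, edgeR adjusted p = 0.0677). Against the sham rats of day 14, P2rx4 in the TBI rats of day 1 was again higher without overlap (log2 0.55, SE 0.16, edgeR adjusted p = 0.0112).

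P2rx7, the channel that opens at high ATP and is tied to interleukin-1 release, is the neighbour of P2rx4. In the RefSeq annotation of GRCr8 both genes lie on the minus strand of chromosome 12, 27.2 kb apart with 1 gene between them. P2rx7 was at 15.4 and 16.7 CPM in sham and 21.6, 15.1, 17.7 and 20.1 CPM in TBI at day 1, and at 19.1, 24.2, 17.6 and 25.4 CPM in sham and 32.8, 23.9, 20.5 and 29.5 CPM in TBI at day 14. The groups overlapped at both days. The differences were log2 0.21 (interval -0.25 to 0.67, edgeR adjusted p = 0.524) and log2 0.31 (interval -0.06 to 0.68, edgeR adjusted p = 0.529). Whether the change of P2rx7 differed from that of P2rx4 was not tested.

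For these neighbouring channels, whose changes were not tested against each other, the 250 bases before each start site are shown from RefSeq (GRCr8, minus strand of each, chr12:39523090-39523339 for P2rx4 and chr12:39594923-39595172 for P2rx7). Motif matches are in capitals: GAGGAA, the core that ETS factors such as the myeloid factor PU.1 bind, and GGGCGG, the GC box of Sp factors.
P2rx4: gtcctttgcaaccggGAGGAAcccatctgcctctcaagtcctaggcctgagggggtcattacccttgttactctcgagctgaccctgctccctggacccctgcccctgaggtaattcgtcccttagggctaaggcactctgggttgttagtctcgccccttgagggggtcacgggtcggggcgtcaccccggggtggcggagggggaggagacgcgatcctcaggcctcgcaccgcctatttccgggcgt
P2rx7: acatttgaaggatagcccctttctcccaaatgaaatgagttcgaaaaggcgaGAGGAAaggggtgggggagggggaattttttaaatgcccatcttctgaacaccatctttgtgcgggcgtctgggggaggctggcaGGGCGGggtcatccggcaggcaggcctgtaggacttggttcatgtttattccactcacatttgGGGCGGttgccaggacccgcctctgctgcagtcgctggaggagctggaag

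Both windows held 1 GAGGAA, starting 235 bases before the start of P2rx4 and 198 bases before that of P2rx7, and 23.3% of all 33469 RefSeq promoter windows of 250 bases held this word on either strand. GGGCGG was found 2 times before P2rx7, 113 and 50 bases from its start, and not before P2rx4, with 30.5% of all windows holding it. Neither window held TATAAA (12.9% of all windows) or the AP-1 word TGANTCA (6.3%); the motifs were searched on both strands and did not overlap each other here. Of the 10 genes, 8 had a promoter entry; P2ry6 and Adora2a had none. Among the other 6 entries, GAGGAA was found only for Adora3, and GGGCGG for P2ry1, Nt5e and Panx1. A match describes letters in a window and was not tied to any measurement here.

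P2ry1, an ADP receptor of neurons and glia, had low and variable levels. It ranged from 3.07 to 4.52 CPM in sham and 3.01 to 6.45 CPM in TBI at day 1, and from 2.49 to 4.52 CPM in sham and 2.79 to 4.38 CPM in TBI at day 14. The groups overlapped at both days, with differences of log2 0.23 (interval -0.52 to 0.98, edgeR adjusted p = 0.679) and log2 0.02 (interval -0.61 to 0.64, edgeR adjusted p = 0.995).

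**Figure D2:**
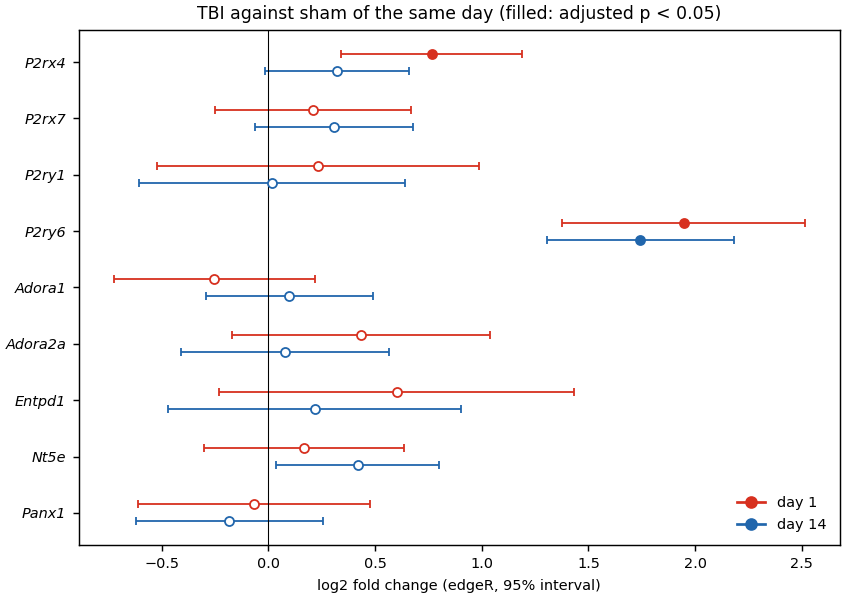
Log2 fold change of TBI against sham of the same day for the 9 tested genes, from edgeR, with 95% intervals; filled points have an adjusted p under 0.05. P2ry6 is far to the right at both days (1.95 and 1.74), P2rx4 is filled at day 1 only, and the other intervals include 0 or, for Nt5e at day 14, come close to it (0.04 to 0.80).

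Adora1, the inhibitory adenosine receptor of hippocampal neurons, was not called in TBI against sham of the same day. At day 1 it was at 116 and 135 CPM in sham and at 73.0, 116, 108 and 124 CPM in TBI (log2 -0.25, interval -0.73 to 0.22, edgeR adjusted p = 0.450). At day 14 it was at 67.8, 73.7, 112 and 79.8 CPM in sham and at 99.0, 72.8, 85.0 and 100.04 CPM in TBI (log2 0.10, interval -0.29 to 0.49, edgeR adjusted p = 0.920). Both sham rats of day 1 lay above all 4 sham rats of day 14. That difference between sham groups (log2 0.59, SE 0.22) had an unadjusted p of 0.0174 and did not pass the adjusted test by edgeR (adjusted p = 0.0733). It did pass in 3 of the 22 alternative fits, with the replicate number as a block and without TBI day 1 replicate 1 or sham day 14 replicate 3.

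Adora2a, the stimulatory receptor best known from the striatum, was at 2.72 to 4.42 CPM in sham and 4.17 to 5.71 CPM in TBI at day 1, and at 3.52 to 5.70 CPM in sham and 3.78 to 5.92 CPM in TBI at day 14. The groups overlapped at both days. The differences were log2 0.43 (interval -0.17 to 1.04, edgeR adjusted p = 0.300) and log2 0.08 (interval -0.41 to 0.57, edgeR adjusted p = 0.957). Markers of striatal projection neurons summed to 250 to 480 CPM over the 14 libraries, with 3 of the 10 lower at day 1 and 0 called by edgeR at day 14. Over the 22 alternatives 0 to 3 were lower at day 1, with 1 of 9 tested lower without the libraries high in choroid plexus markers and 0 of 9 when only the groups compared were fitted.

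Adora3, the third receptor of the set and known from immune cells, had 0 counts in each of the 14 libraries. With 3 counts as the limit that a count of 0 allows, this leaves a level of up to 0.122 to 0.199 CPM, depending on the library, for counting error only. Among all 17172 genes of the file, 2170 had 0 counts everywhere, so the row says that no read was assigned to this gene model and not that the gene was silent.

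Entpd1 (CD39), which clears ATP and ADP, was at 4.20 and 1.80 CPM in sham and 3.27, 5.48, 4.22 and 5.15 CPM in TBI at day 1. At day 14 it was at 2.56, 2.70, 2.70 and 1.80 CPM in sham and 2.45, 2.4, 1.99 and 4.49 CPM in TBI. The sham rats of day 1 were farther apart than the 4 TBI rats of that day, and 1 TBI rat of day 14 stood above the other 3. TBI and sham of the same day were not called different (day 1 log2 0.60, interval -0.23 to 1.43, edgeR adjusted p = 0.295, and day 14 log2 0.22, interval -0.47 to 0.90, edgeR adjusted p = 0.887). The size of the day 1 difference turned on the sham pair: it was log2 1.33 without sham day 1 replicate 1 and 0.11 without replicate 2, and neither passed the test (edgeR adjusted p = 0.0618 and 0.918).

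Nt5e (CD73), the enzyme that makes adenosine, was at 17.2 and 22.3 CPM in sham and 24.6, 21.7, 15.1 and 27.1 CPM in TBI at day 1. At day 14 it was at 18.7, 19.2, 16.8 and 21.1 CPM in sham and 26.3, 23.1, 21.0 and 30.9 CPM in TBI. In the day 14 groups, 3 of 4 TBI rats were above all sham rats, and the remaining one lay just under the highest sham rat. The difference at day 14 was 1.34-fold (log2 0.42, interval 0.04 to 0.80) with an unadjusted p of 0.0338, and it did not pass the adjusted test by edgeR (adjusted p = 0.307). At day 1 it was log2 0.17 (interval -0.30 to 0.63, edgeR adjusted p = 0.632).

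Panx1, the ATP-release channel, was separated by day and not by injury. It was at 14.2 and 16.7 CPM in sham and 8.14, 16.6, 19.7 and 14.4 CPM in TBI at day 1. At day 14 it was at 25.6, 31.0, 24.6 and 33.9 CPM in sham and 25.6, 24.6, 23.7 and 27.5 CPM in TBI. All 6 rats of day 1 lay under all 8 rats of day 14, while TBI and sham of the same day overlapped (day 1 log2 -0.07, interval -0.61 to 0.48, edgeR adjusted p = 0.875, and day 14 log2 -0.18, interval -0.62 to 0.26, edgeR adjusted p = 0.836).

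A change in the size of the TBI effect from day 1 to day 14 was called for 0 of the 9 genes by edgeR, by limma-voom and by DESeq2, and the unadjusted edgeR p was under 0.05 for 0 of them. Over all tested genes, 2.24% were called by adjusted p with a more positive effect at day 1 and 1.44% with a more positive effect at day 14. The share of all genes with an unadjusted p under 0.05 was not counted.

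Between days within a condition, Panx1 was the gene with calls in both. TBI rats of day 14 had 1.72-fold more Panx1 than TBI rats of day 1 (log2 0.78, SE 0.21, edgeR adjusted p = 0.00827). In sham rats Panx1 was lower at day 1 than at day 14 (log2 -0.90, SE 0.26, edgeR adjusted p = 0.0301). The sham call was lost in 6 of 22 alternative fits, among them the one without the libraries high in choroid plexus markers (log2 -0.78, edgeR adjusted p = 0.168), and those without sham day 1 replicate 1 or 2 or sham day 14 replicate 2 or 4, with log2 changes from -1.02 to -0.78 over all 22. The TBI call was kept in all 22. P2rx7 was also higher in TBI rats of day 14 than of day 1 (1.43-fold, log2 0.52, SE 0.17, edgeR adjusted p = 0.0275), with overlapping groups, and this call was lost without TBI day 1 replicate 2 or 3 or TBI day 14 replicate 1 or 4 (edgeR adjusted p of 0.0604 to 0.0988). In all, 2 of 9 genes were higher and 0 lower in TBI day 14 than in TBI day 1, beside 17.6% and 21.9% of all genes. Between sham day 1 and sham day 14, 0 of 9 were higher and 1 lower at day 1, beside 11.3% and 7.88% of all genes. Day here is the time since surgery and anesthesia. The paper states a correction for batch in its trajectory figure, but the labels name no batch. Whether day coincides with a batch therefore cannot be told.

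The sham rats of day 14 can also serve as a baseline for the TBI rats of day 1, which avoids the pair of sham day 1 rats but adds the difference in time. Against this baseline 3 of the 9 genes were higher (P2ry6, P2rx4 and Entpd1) and 1 lower (Panx1), while 25.0% of all tested genes were higher and 21.0% lower. P2ry6 gave log2 1.97 (SE 0.21, edgeR adjusted p = 4.3e-06), next to 1.95 against the sham rats of its own day. Entpd1 was 1.86-fold higher, all 4 TBI rats of day 1 being above all 4 sham rats of day 14 (log2 0.89, SE 0.32, edgeR adjusted p = 0.0314). This Entpd1 call was lost in 6 of 22 alternative fits, namely with the replicate number as a block and without TBI day 1 replicate 2 or 4 or sham day 14 replicate 1, 2 or 4, with adjusted p up to 0.092. Panx1 was at 0.512 of the sham day 14 level (log2 -0.97, SE 0.21, edgeR adjusted p = 0.00172), and its value against the sham rats of day 1 was -0.07, given above. These comparisons share the TBI day 1 rats, so their values stand side by side and do not support each other.

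**Figure D3:**
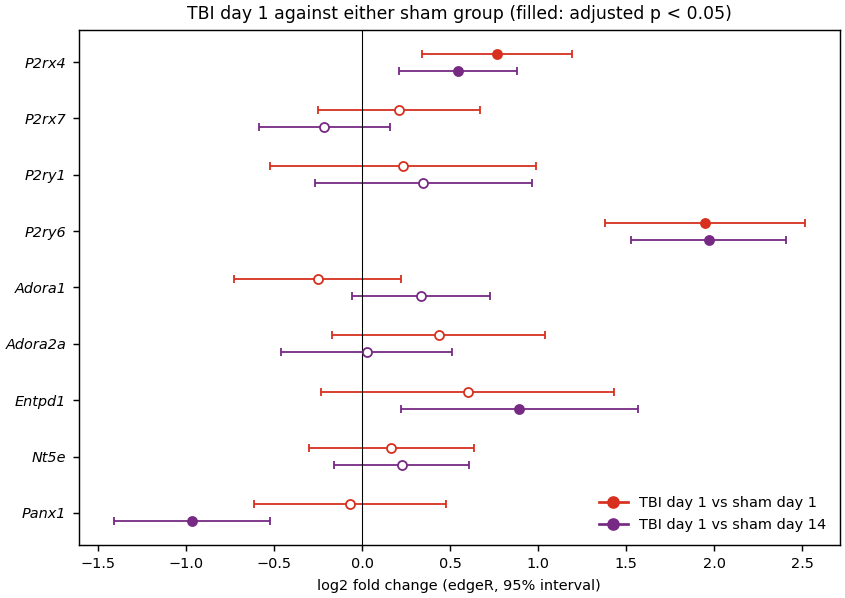
Log2 fold change of the TBI rats of day 1 against sham day 1 and against sham day 14 for the 9 tested genes, from edgeR, with 95% intervals; filled points have an adjusted p under 0.05, and both comparisons use the same TBI rats. P2ry6 has nearly the same value on either baseline (1.95 and 1.97), while Panx1 moves from -0.07 to -0.97.

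The rest of the P2X and P2Y family, with Adora2b, gave a wider range of changes. Of 13 listed genes 12 were tested, and at day 1 2 rose and 3 fell, with a median log2 change of -0.09. At day 14 2 rose and 0 fell, with a median of 0.14. Over all tested genes, 11.2% were higher and 7.93% lower at day 1, and 4.07% and 0.365% at day 14. The same shares stand beside the counts of the lists that follow and of the cell type markers. Such small counts were read gene by gene. P2ry12 and P2ry13, the ADP receptors that mark resting microglia, fell at day 1 and rose at day 14 against sham of the same day. The paper places both genes in a module lowered at day 1 with partial recovery at day 14, unlike the day 14 rise here. P2ry12 was at 29.5 and 20.01 CPM in sham and 11.7, 10.2, 13.7 and 18.1 CPM in TBI at day 1, and at 13.7, 15.5, 17.5 and 18.6 CPM in sham and 45.6, 37.4, 28.5 and 44.2 CPM in TBI at day 14. Sham and TBI of the same day did not overlap at either day, and the direction turned. The TBI rats of day 1 did overlap the sham rats of day 14. The log2 change of P2ry12 was -0.88 at day 1 (SE 0.24, edgeR adjusted p = 0.0190) and 1.25 at day 14 (SE 0.20, edgeR adjusted p = 0.00129). P2ry13 had log2 changes of -0.995 (SE 0.27, edgeR adjusted p = 0.0209) and 1.14 (SE 0.23, edgeR adjusted p = 0.00711). The day 1 falls of both were lost without sham day 1 replicate 1 and without the 3 libraries high in choroid plexus markers (log2 -0.59, adjusted p = 0.134 for P2ry12 and log2 -0.57, adjusted p = 0.194 for P2ry13, by edgeR), while the day 14 rises were kept in all 22 alternative fits. The difference between the day 1 and day 14 effects was called for both genes (log2 -2.14, SE 0.31, edgeR adjusted p = 0.00246 for P2ry12 and log2 -2.13, SE 0.36, edgeR adjusted p = 0.00615 for P2ry13) and was kept in all 21 alternatives that could test it.

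**Figure D4:**
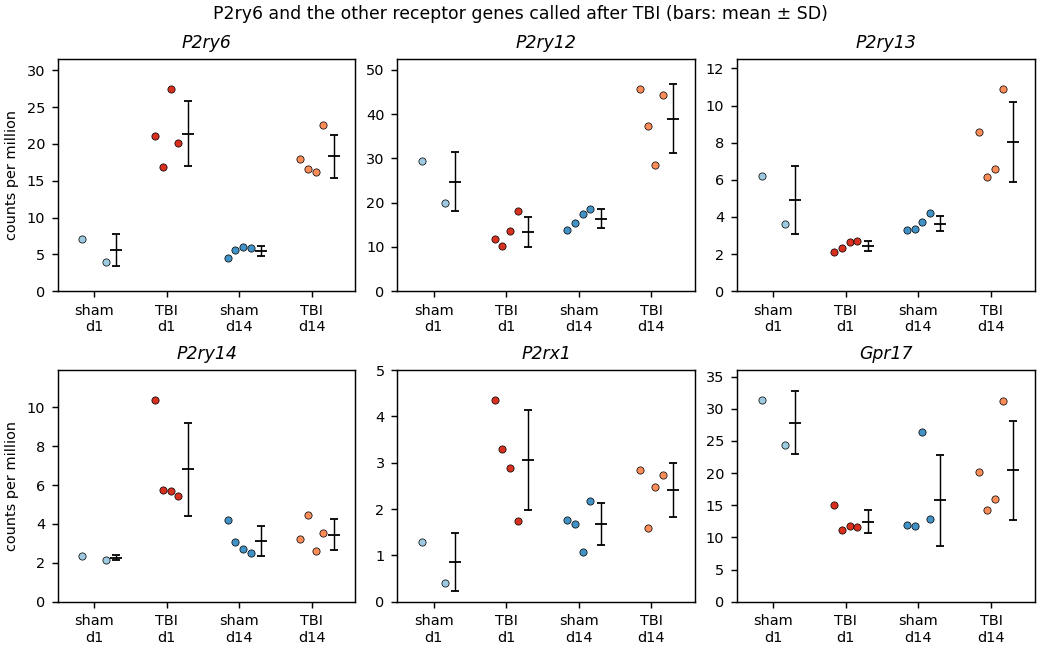
CPM (linear axes, starting at 0) of P2ry6 and of the 5 other P2X and P2Y genes called in TBI against sham of the same day, in each of the 14 rats; bars are mean ± SD. P2ry6 is high in both TBI groups, while P2ry12 and P2ry13 are low in TBI at day 1 and high in TBI at day 14, where P2ry12 is at 28.5 to 45.6 CPM.

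The remaining calls in the receptor list were at day 1. P2ry14, a receptor for UDP-sugars, rose from 2.17 to 2.37 CPM in sham to 5.42 to 10.4 CPM in TBI (log2 1.58, SE 0.34, edgeR adjusted p = 0.00564). P2rx1, a channel of platelets and myeloid cells, rose by log2 1.85 (SE 0.49, edgeR adjusted p = 0.0174) from 0.415 and 1.29 CPM. Gpr17, a receptor of oligodendrocyte precursors, fell by 1.17 on the log2 scale (SE 0.33, edgeR adjusted p = 0.0235). Each of these calls was lost in some fits with 1 rat left out: P2ry14 and P2rx1 without sham day 1 replicate 2 (edgeR adjusted p = 0.0661 and 0.213), and Gpr17 without sham day 1 replicate 1 or 2 or TBI day 1 replicate 2 (edgeR adjusted p = 0.105, 0.0661 and 0.0512). The Gpr17 call was also lost without the 3 libraries high in choroid plexus markers (log2 -0.98, edgeR adjusted p = 0.0963). Without sham day 1 replicate 1 the P2rx1 change was log2 2.86.

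Of 11 listed routes of ATP release outside Panx1, 9 were tested, with 1 higher and 1 lower at day 1 (median log2 -0.38) and 0 called by edgeR at day 14 (median -0.04). Slc17a9, the vesicular nucleotide transporter that loads ATP into vesicles, rose at day 1 (log2 1.33, SE 0.33, edgeR adjusted p = 0.0121). At day 14 it was at 2.34 to 3.43 CPM in sham and 4.72 to 6.02 CPM in TBI, without overlap but not called by edgeR. Over the 22 alternatives 0 to 2 genes of this list were higher at day 14. The astrocyte connexin Gjb6 fell at day 1, with a log2 change of -1.17 (SE 0.24, edgeR adjusted p = 0.00361). The fall was lost without the libraries high in choroid plexus markers (edgeR adjusted p = 0.0787) and without sham day 1 replicate 1 alone (edgeR adjusted p = 0.0501), and the Slc17a9 rise without sham day 1 replicate 2 (edgeR adjusted p = 0.157).

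Of 8 ectonucleotidases outside Entpd1 and Nt5e, 6 were tested, with 1 higher and 1 lower at day 1 (median log2 0.14) and 0 called by edgeR at day 14 (median 0.02). Enpp3, which hydrolyses extracellular nucleotides and is known from basophils and mast cells, was at 3.61 and 1.80 CPM in sham and 12.8, 23.9, 18.8 and 13.5 CPM in TBI at day 1. The rise was 6.40-fold (log2 2.68, SE 0.39, edgeR adjusted p = 0.000324) and was kept in all 22 alternative fits. At day 14 the level was at 1.14 to 2.88 CPM in sham and 2.14 to 2.59 CPM in TBI, and the difference between the days was called (log2 2.49, SE 0.48, edgeR adjusted p = 0.0117), except without sham day 1 replicate 2 (edgeR adjusted p = 0.0549). Enpp2 (autotaxin) had a day 1 change of log2 -3.48 (SE 0.71, edgeR adjusted p = 0.00375) with 2297 CPM in sham day 1 replicate 1 against 201 CPM in replicate 2 and 91.7 to 130 CPM in TBI. Without the choroid plexus libraries the Enpp2 value was log2 -0.86 (edgeR adjusted p = 0.0421), and without replicate 1 alone it was -0.85 (edgeR adjusted p = 0.358).

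Of 15 genes of adenosine uptake, salvage and breakdown, 13 were tested, with 4 higher and 1 lower at day 1 (median log2 0.19) and 1 higher at day 14 (median 0.12). Adenosine deaminase, Ada, turns adenosine to inosine and was at 3.13 and 1.52 CPM in sham and 6.25 to 7.84 CPM in TBI at day 1 (log2 1.59, SE 0.41, edgeR adjusted p = 0.0157). Pnp, which breaks inosine down further, rose by log2 0.77 (SE 0.16, edgeR adjusted p = 0.00510). Ampd3, the AMP deaminase, rose by log2 0.88 (SE 0.18, edgeR adjusted p = 0.00322), and the nucleoside carrier Slc28a2 by log2 1.65 (SE 0.44, edgeR adjusted p = 0.0184). Adenosine kinase, Adk, which returns adenosine to AMP inside cells, fell by 0.52 on the log2 scale (SE 0.14, edgeR adjusted p = 0.0168). All 5 day 1 calls rest on the sham day 1 pair: Ada, Pnp and Ampd3 were lost without replicate 2 (edgeR adjusted p = 0.194, 0.0986 and 0.0710), Adk without replicate 1 (edgeR adjusted p = 0.114) and Slc28a2 without replicate 1 or 2 (edgeR adjusted p = 0.0646 and 0.135). Without the choroid plexus libraries Adk (log2 -0.39, edgeR adjusted p = 0.160) and Slc28a2 (log2 1.65, edgeR adjusted p = 0.0831) did not pass the test either. Without sham day 1 replicate 1 the Ada change was log2 2.19 (edgeR adjusted p = 0.0119). At day 14 the lysosomal nucleoside carrier Slc29a3 rose 1.93-fold (log2 0.95, SE 0.17, edgeR adjusted p = 0.00250), from 19.7 to 27.5 CPM in sham to 35.3 to 52.8 CPM in TBI, and this was kept in all 22 alternative fits.

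**Figure D5:**
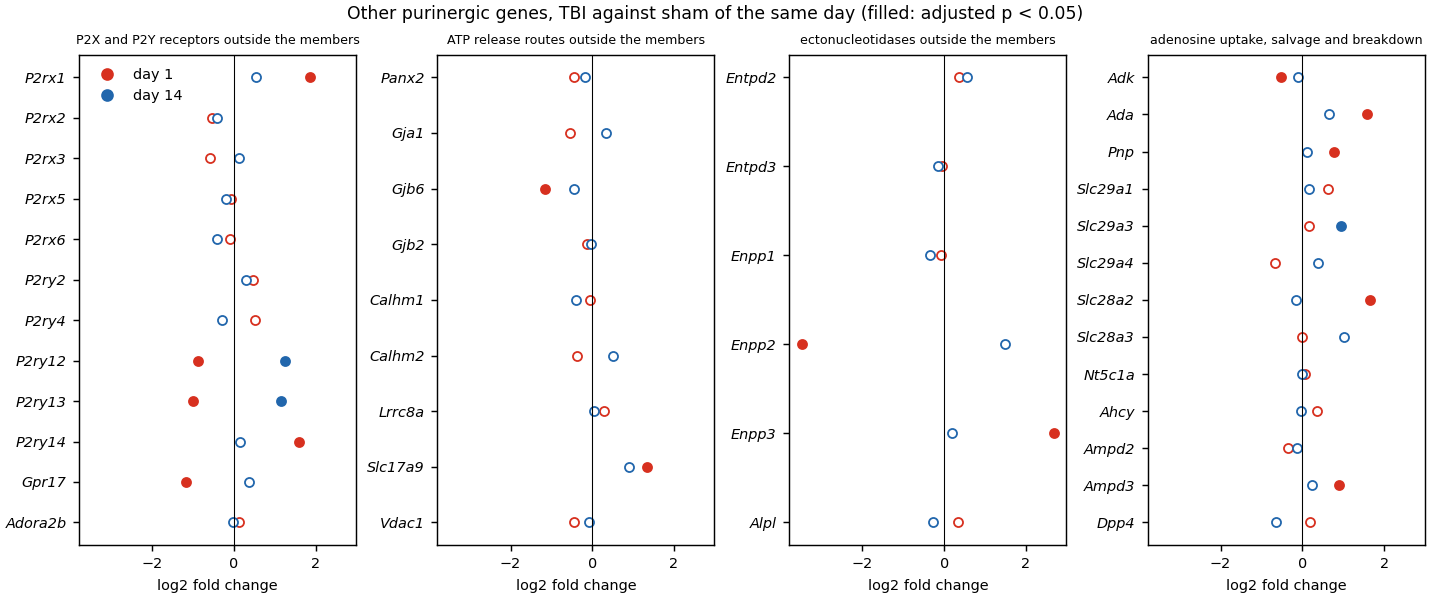
Log2 fold change of TBI against sham of the same day for the tested genes of 4 lists around the members (receptors, ATP release, ectonucleotidases, adenosine uptake and breakdown), from edgeR; filled points have an adjusted p under 0.05. Most filled points are at day 1, and P2ry12 and P2ry13 are filled on opposite sides of 0 at the 2 days; the Enpp2 value at day 1 (-3.48) rests on 1 sham library.

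Cell type markers moved with these results, and their part in them was not tested. At day 1 microglia markers summed to 500 to 786 CPM in sham rats and 857 to 1079 CPM in TBI rats, and at day 14 to 555 to 719 CPM and 1192 to 2094 CPM. Of 11 tested microglia markers, 3 rose (Aif1, Itgam and C1qb) and 1 fell (Tmem119, log2 -1.90, edgeR adjusted p = 0.00299) at day 1, and 8 rose and 0 fell at day 14. Over the 22 alternatives 2 to 6 rose at day 1 (6 without the choroid plexus libraries) and 7 to 9 at day 14. Markers of infiltrating myeloid cells summed at day 1 to 91.1 to 164 CPM in sham rats and 698 to 1120 CPM in TBI rats, and at day 14 to 109 to 146 CPM and 120 to 263 CPM, with 9 of 11 tested markers higher at day 1 and 2 (F10 and Lyz2) at day 14 (4 to 10 and 2 over the alternatives). Most of the myeloid sum came from Fn1 and Lyz2, at means of 484 and 323 CPM in the TBI rats of day 1. S100a9 and S100a8 had means of 16.2 and 8.12 CPM there, so the sum mainly follows Fn1 and Lyz2. At day 14 these genes parted: Fn1 averaged 88.0 CPM in sham and 57.5 CPM in TBI rats and was not called. Lyz2 averaged 26.0 and 82.2 CPM, so the myeloid sum at day 14 mixes a lower and a higher gene. P2ry6 was high at both days, the myeloid sum mainly at day 1 and the microglia sum most at day 14. Among the other lists, day 1 and day 14 calls were 2 higher and 1 lower, then 1 higher, of 9 astrocyte markers, 4 lower, then 0, of 10 neuron markers, 4 lower, then 0, of 9 oligodendrocyte markers, and 1 higher, then 0, of 7 endothelial markers. They were 2 lower, then 0, of 5 markers of CA3, CA1 and dentate neurons, 1 higher, then 0, of 6 markers of meninges and fibroblasts, and 9 lower, then 1 higher, of 11 choroid plexus markers. The choroid plexus count at day 1 rests on 1 sham library: it was 0 without sham day 1 replicate 1, 0 by limma-voom and 1 of 10 without the 3 libraries, and over the 22 alternatives it ran from 0 to 10, with 0 to 9 higher at day 14. Lower neuron markers at day 1 numbered 0 to 7 over the alternatives, with 6 without sham day 1 replicate 1 and 0 without replicate 2. Lower oligodendrocyte markers numbered 1 to 6, with 1 when either sham rat of day 1 was left out and 1 without the choroid plexus libraries. Endothelial markers higher at day 1 numbered 0 to 4, those of meninges and fibroblasts 0 to 3, and lower markers of CA3, CA1 and dentate neurons 1 to 3.

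For the genes called in TBI against sham, the genes with the most similar pattern were found as those with the smallest root mean square difference of centred log2 CPM over the 14 libraries. For P2ry6 (SD of log2 CPM 0.98) these were Ptpn6 (0.18), the phosphatase SHP-1 of blood cells, Cd180 (0.22), a Toll-like receptor relative of B cells and macrophages, and Plek (0.22), pleckstrin of platelets and leukocytes. Ptpn6 rose by log2 2.16 at day 1 and 1.82 at day 14 (edgeR adjusted p = 8.9e-06 and 8.6e-06). For P2rx4 (SD 0.35) they were Gmip (0.14), a GTPase-activating protein, Pou2f2 (0.16), a transcription factor of lymphocytes, and Ctsl1 (0.18), the lysosomal protease cathepsin L. These values describe likeness in the same 14 libraries from which the members' changes were taken.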

How the data were processed

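Poly(A) RNA was sequenced from 14 hippocampi as single-end stranded 50-base reads. Per the labels and methods, the authors used STAR 2.4.2a for alignment to rn5 and featureCounts 1.5.0 for counting over UCSC genes, and they deposited raw counts per gene (the strand setting of the counting is not given in the sources used here). H3K4me3 peak lists are on rn5 and were not used here, because no annotation of that build was used to place them at genes. Groups came from the labels, and every labelled RNA-seq sample was used. Replicates are separate rats.

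Differential expression was tested on the counts with edgeR 4.0.16 in R 4.3.3, using its default filter by group, TMM scaling and a quasi-likelihood model in which each of the 4 groups has its own mean. The samples of sham day 1 thus share the spread estimated over the 4 groups. P-values are two-sided and Benjamini-Hochberg adjusted over 12875 genes, with a threshold of 0.05. Log2 CPM used a prior count of 2. Alternatives were limma-voom 3.58.1, DESeq2 1.42.0, median-of-ratios factors, no filter on low counts, a replicate block, a choroid plexus score as covariate, only the groups compared, a prior count of 0.5, and each sample left out. Omitting the 3 libraries high in choroid plexus markers was added after seeing the data. The scripts were tested on simulated counts in which 200 genes were raised in TBI day 1, in equal numbers by 2-fold and 4-fold. Against sham day 1, edgeR called 45 of the genes raised 2-fold and 94 of those raised 4-fold, with 7 false calls. The simulation raised 200 of 12732 genes, whereas 2458 of 12875 were called at day 1 in the data. The adjusted threshold thus falls elsewhere, and these rates do not carry over to the data. A gene not called at day 1 was not shown to be unchanged. Between replicates, chi-square per degree of freedom was 12.9 to 168, so no library pair differed by as little as counting noise.

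Named genes are the 10 members, all genes of the 4 pathway lists called in TBI against sham of the same day, the 3 genes most similar to each member so called, and markers whose sum moves with a result. A gene that this rule covers is not reported here. The members and lists were written from general knowledge, and were chosen with earlier results of these data known, so they are not independent of them. The SE is the absolute log2 fold change over the square root of the F statistic. Intervals are 95% and use this SE with the t distribution. Limits from 0 counts cover counting error only, as reads carry no molecular identifiers. Promoter sequences and gene order are from RefSeq (GRCr8), whose positions were not combined with rn5. Figures were drawn with matplotlib 3.10.9 in Python 3.11.15.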

Additional observations from a re-analysis of the deposited data

Results flagged for a closer look

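A single rat stood apart from its group in 5 of 72 groups of 4 examined over 24 genes (9 members and 15 other pathway genes), by the ratio of the gap to the nearest rat over the range of log2 CPM. Chance gives about 1 in 20 such groups. For Entpd1 in sham day 14, replicate 4 was lowest at 1.80 CPM (ratio 0.861). For P2ry14 in TBI day 1, replicate 1 was highest at 10.4 CPM (ratio 0.916). For Gpr17, TBI day 1 replicate 1 was highest at 15.04 CPM (ratio 0.829) and sham day 14 replicate 3 was highest at 26.4 CPM (ratio 0.903). For Adk in sham day 14, replicate 3 was highest at 60.5 CPM (ratio 0.898).

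The effect of TBI differed between the days, by edgeR's test of the difference, for 4 of the other pathway genes and 0 of the members (0 also at an unadjusted p under 0.05, by limma-voom and by DESeq2). Over all tested genes 3.68% were called. The other pathway genes were examined only if called in TBI against sham at day 1 or day 14. The members were not chosen by such calls, so the counts of these sets are not comparable. The day 1 effect minus the day 14 effect was log2 -2.14 for P2ry12, -2.13 for P2ry13, -4.97 for Enpp2 and 2.49 for Enpp3. The Enpp2 value was -0.99 (edgeR adjusted p = 0.151) without the 3 libraries high in choroid plexus markers.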

How the results depend on the processing

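Over 22 alternatives, 33 fold changes of members gave 724 values, of which 678 kept their direction and side of the threshold, 21 lost and 5 gained a call, and 20 turned sign, all of them uncalled. All 36 group levels moved by less than 1 SD with a prior count of 0.5. The number of members called at day 14 was 1 in all 22, and that for the difference between days 0 in all 21 that could test it. At day 1 it was 1 instead of 2 with the choroid plexus score as covariate, with only the groups compared and without the libraries high in choroid plexus markers, and 1 to 2 with 1 rat left out. Over all tested genes, the main fit called 1437 higher and 1021 lower at day 1. The covariate gave 1400 and 1001, and only the groups compared gave 557 and 94. P2rx4 was the call lost wherever the member number was 1, with log2 0.61 (edgeR adjusted p = 0.0521) under the covariate and 0.80 (adjusted p = 0.0621) in the groups compared. For TBI day 14 against TBI day 1 it was 1 to 2 with 1 rat left out. For sham day 1 against sham day 14 it was 2 instead of 1 under the replicate block, 0 with the covariate and without the choroid plexus libraries, and 0 to 2 with 1 rat left out. Over all tested genes, that comparison of sham groups gave 1450 higher and 1014 lower at day 1 in the main fit. It gave 1510 and 1273 under the replicate block, and 1166 and 808 with the covariate. Where sham day 1 keeps 1 rat, that rat is assumed to vary like the other groups.

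Sign changes were all of uncalled values. P2ry1 at day 1 was log2 -0.039 under the replicate block, -0.035 without the choroid plexus libraries and -0.019 to 0.54 with 1 rat left out, and at day 14 -0.11 to 0.16. Nt5e at day 1 was -0.022 without those libraries and -0.010 to 0.36 with 1 rat left out. With 1 rat left out, Panx1 at day 1 was -0.24 to 0.13, Entpd1 at day 14 -0.10 to 0.37, Adora2a at day 14 -0.041 to 0.19, Adora2a in TBI day 1 against sham day 14 -0.094 to 0.13, and the difference between days for P2ry6 -0.16 to 0.67. Adora2a at day 14 was -0.077 with the covariate and -0.024 without those libraries.

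The labels do not say whether equal replicate numbers mark a pairing or a batch, and the main fit used no block. The deviations of same-numbered samples correlated at -0.35 to 0.24 over 18 pairs, with 5 above 0.1. At day 14, 4 of 8 samples correlated best with their own number. Whether the numbers mark a shared factor was not tested. With the replicate number as a block, 2 members were called at day 1 and 1 at day 14. Calls against sham day 1 rest on 2 rats, and genes at a few CPM such as P2ry1, Adora2a and Entpd1 have intervals over 1 log2 unit wide at day 1. Of the 14 day 1 calls among the other pathway genes, 11 were lost with only the groups compared. Calls over all tested genes fell in that fit too. They went from 1437 higher and 1021 lower of 12875 to 557 higher and 94 lower of 12720. The loss is therefore not particular to these genes. The cause of each changed call was not tested.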
